A study of Triticum aestivum with 4 samples.

Results

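Wheat transcripts for the translation release factor eRF1 were followed in the cultivar MGS1 Aliança, in roots and in leaves under drought. Their best match was 1 of the 3 Arabidopsis eRF1 genes, ERF1-1, ERF1-2 or ERF1-3. The symbol stands here for eukaryotic release factor 1 and not for the ethylene response factor that shares it. The transcripts were taken by the symbol in the description of the best BLAST match, at an E-value up to 0.001. The weakest of the matches had an E-value of 4e-12, far inside that limit. They made up 17 isotigs, the assembled transcripts, of 51984 in all, and fell into 10 isogroups, the sets of isotigs joined by shared reads. They stand for 3 of the 10711 genes with an Arabidopsis match in either tissue.

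Each tissue and condition gave 1 library. Drought-stressed plants, 3 to a pot, spent 2 weeks with water at 75% of field capacity and then 3 weeks without any. Control plants were kept at 100% of field capacity, and all plants were 5 weeks old and tillering at harvest. Roots and leaves were pooled apart, so that no condition had a replicate. Every interval below is a 95% exact interval for counting error only, and a ratio compares 2 libraries and not 2 treatments.

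When a ribosome reaches a stop codon, eRF1 recognises the codon in the A site and triggers release of the finished protein from the last tRNA. It acts together with the GTPase eRF3. The ATPase ABCE1, called RLI in plants, then splits the ribosome into its subunits for a new round. Pelota and HBS1 are relatives of eRF1 and eRF3 that rescue stalled ribosomes, and the UPF proteins act on messages that end too early. Arabidopsis carries several eRF1 genes, where yeast has a single one, SUP45.

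The libraries held 300665 and 305731 reads in drought and control roots, and 299134 and 319997 reads in drought and control leaves. The reads counted once per isogroup were 199622, 202624, 183141 and 203328 in the same libraries, and were the basis of the RPM values (reads per 1000000 isogroup reads). The labels of the tissues were checked with 6 leaf and 9 root marker genes. No leaf marker was found in roots, and 4 were found in leaves, with 1312 reads in drought and 9082 in control leaves. RBCS1A, the small subunit of Rubisco, alone had 901 reads in drought and 6764 in control leaves. Of the root markers, 3 were also found in leaves, with 15 reads in drought and 42 in control leaves, and NAS4 among them had 8 reads in drought leaves. In roots 7 were found, with 34 reads in drought and 329 in control roots. The aquaporin TIP2;3, the nicotianamine synthase NAS4 and the nitrate transporter NRT2:1 had no read in drought roots, against 98, 52 and 14 in control roots. Markers of each tissue were therefore lower in drought in that tissue, and their part in the results below was not tested. A lower marker can come from fewer cells of a type or from less RNA per cell, and these cannot be told apart in pooled tissue.

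Roots held 9 of the eRF1 isotigs in 6 isogroups. ERF1-2 was the gene with most reads in drought roots. Its isogroup00888 had 144 reads in drought roots and none in control roots. Against a floor of 3 reads in the control library, this was at least 48.7-fold higher in drought. The level was 721 RPM in drought roots, with an interval of 608 to 849, and the exact interval of the 0 reads in control roots reached up to 18.2 RPM. Of the 24900 root isogroups, 4234 had no control read, and 12 of these held at least 144 reads in drought. It was thus among the most heavily read of the root isogroups without a control read, a rank that comes from the counts that chose the family. The isogroup had 3 isotigs of 1901 to 2003 bases, with 102, 101 and 50 reads in drought roots and none in control roots. They share reads, which were counted again for each isotig. The longest aligned to residues 4 to 418 of the 434 residues of Arabidopsis ERF1-2, with 338 of 415 aligned residues identical (81%), so that it covered nearly the whole protein.

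The other ERF1-2 isogroup of roots, isogroup07110, had 5 reads in drought and 5 reads in control roots. It matched only residues 331 to 397, with 56% identity, and its place in the family rests on that short match. All 5 reads of ERF1-2 in control roots came from it. With an E-value up to 1e-20 it dropped out, and ERF1-2 then had 102 reads in drought roots and none in control roots.

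ERF1-1 was found in roots alone. Its isogroup05839 had 15 reads in drought and 1 read in control roots, a ratio of 15.2 (2.34 to 641). Its single isotig of 1553 bases aligned to residues 1 to 423 of the 436 of the protein, with 86% identity. The other, isogroup10809, had 2 reads in drought and none in control roots, and covered 9.63% of the protein near its end, with 73% identity. No leaf isotig and no unassembled leaf read had ERF1-1 as its best match.

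ERF1-3 held most of the eRF1 reads of control roots. Its isogroup02074 had 13 reads in drought and 10 reads in control roots, a ratio of 1.32 (0.535 to 3.36). Its isotigs covered residues 5 to 422 with 89% identity. The interval included 1, so a difference between the root libraries was not detectable at this depth. Its isogroup04364, which covered residues 4 to 251 with 91% identity, had 9 reads in drought and 1 read in control roots, a ratio of 9.14 (1.27 to 400). Both had a higher identity to Arabidopsis ERF1-3 than the isogroup with 144 reads had to Arabidopsis ERF1-2 (81%). These are different proteins, and isogroup04364 aligned over a shorter stretch.

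**Figure D1:**
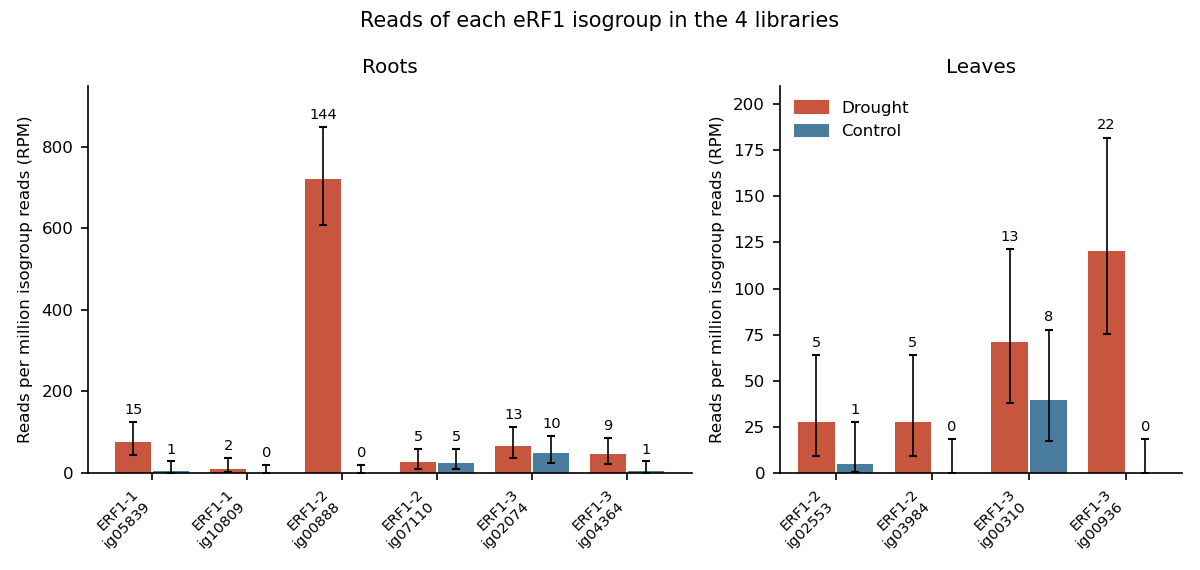
RPM of the 10 eRF1 isogroups (ig, isogroup) in drought (red) and control (blue) libraries of roots and leaves, with exact 95% Poisson intervals and the read count above each bar; the axes of the panels differ. In roots 1 isogroup of ERF1-2 had 144 reads in drought and none in control, and in leaves 1 isogroup of ERF1-3 had 22 reads in drought and none in control.

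Leaves held 8 eRF1 isotigs in 4 isogroups. ERF1-3 was the gene with most reads there, in both libraries. Its isogroup00936 had 22 reads in drought leaves and none in control leaves, at least 8.14-fold higher in drought. The level was 120 RPM in drought leaves (75.3 to 182). Of 4139 leaf isogroups without a control read, 33 held at least 22 reads in drought. Its 2 isotigs, with 22 and 20 reads in drought leaves, aligned to residues 88 to 340 with 76% identity.

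The other ERF1-3 isogroup of leaves, isogroup00310, had 13 reads in drought and 8 reads in control leaves, a ratio of 1.80 (0.693 to 5.02). Its 4 isotigs differed in where the alignment started and ended. Those ending at residue 435, the last of the protein, had 13 and 10 reads in drought leaves, against 6 and 7 reads in control leaves. Those ending at residue 392 had 5 and 2 reads in drought leaves, against 7 and 8 reads in control leaves. For both starts, at residues 156 and 258, the form reaching the end was 209 bases longer, with 8 more reads in drought leaves and 1 fewer read in control leaves. The forms share reads, which were counted again in each, so the reads that tell them apart are few.

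ERF1-2 was lightly read in leaves. Its isogroup03984, which covered residues 26 to 431 with 86% identity, had 5 reads in drought leaves and none in control leaves, at least 1.85-fold higher in drought. Its isogroup02553 had 5 reads in drought leaves and 1 read in control leaves, a ratio of 5.55 (0.621 to 263). The match of this isogroup, 56% identity over residues 331 to 397, was to the same stretch as that of isogroup07110 of roots, with the same 38 of 67 residues counted as identical. Both tissues thus held a transcript with only this short stretch of likeness to eRF1.

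**Figure D2:**
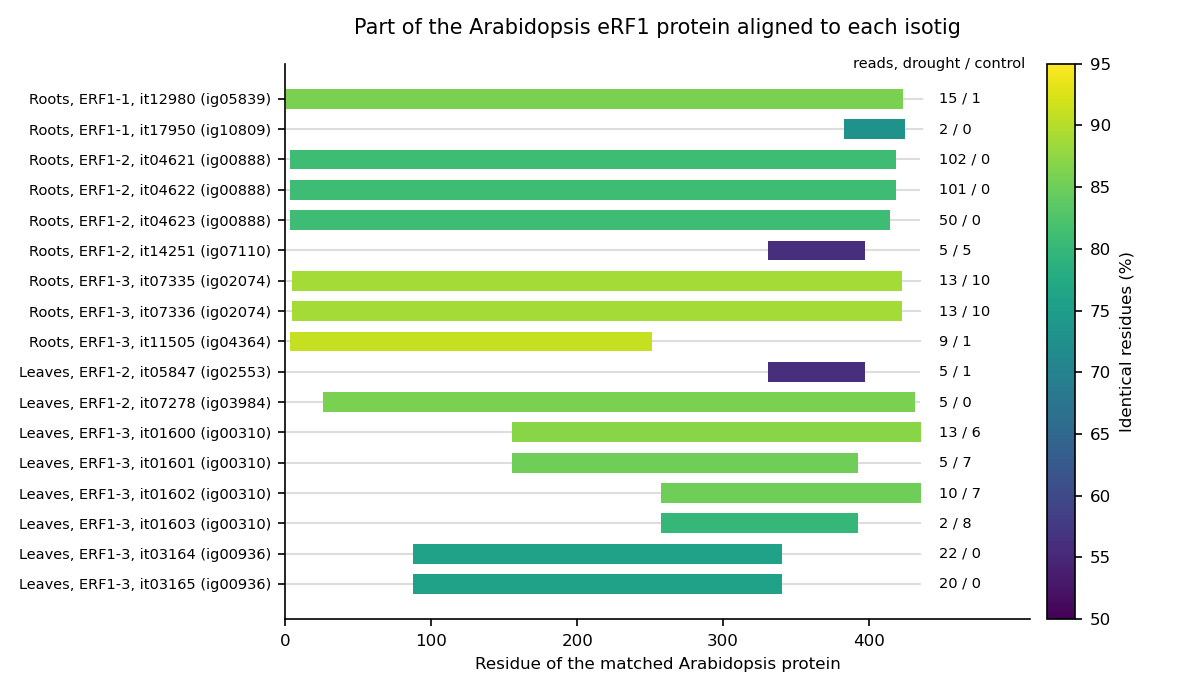
Aligned residues of the matched Arabidopsis protein for each of the 17 eRF1 isotigs (it, isotig; ig, isogroup), coloured by the percentage of identical residues, with reads in drought and control at the right. The grey line is the full protein of 434 to 436 residues; the isotigs with 144 and 22 isogroup reads in drought and none in control had 81% and 76% identity, and the 2 short matches at residues 331 to 397 had 56%.

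The isogroups without a control read and with most reads in drought had one more feature in common. Among the isogroups that covered more than 50% of the matched protein, isogroup00888 had the lowest identity in roots, 81% against 86, 89 and 91% for the others. Isogroup00936 had the lowest in leaves, 76% against 86 and 87%. Isogroup03984 of leaves, at 86%, also had no control read. The short matches left out here had lower identity, 73% for isogroup10809 and 56% for isogroup07110 and isogroup02553. The isogroups set apart here were picked by their read counts, and the others aligned to different Arabidopsis proteins or stretches. The roots and leaves were assembled apart and the isotigs carry no wheat gene identifier. Whether these are copies of the same wheat gene, copies from different wheat genomes or separate genes was not tested.

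The family was chosen by these drought and control read counts: ERF1-1 and ERF1-2 were called higher in drought roots and ERF1-3 in drought leaves in an earlier comparison. Summed over isogroups, with the isotig of most reads counted in each, ERF1-1 had 17 reads in drought and 1 in control roots, a ratio of 19.2 (3.01 to 804). ERF1-2 had 107 reads in drought and 5 in control roots, a ratio of 24.2 (10.1 to 76.1). ERF1-3 had 22 reads in drought and 11 in control roots, a ratio of 2.26 (1.05 to 5.17). The interval of ERF1-3 included 1 with the isogroup totals (0.943 to 4.64), the library reads, the size factors and the top isotig alone (0.570 to 3.58). In leaves, ERF1-2 had 10 reads in drought and 1 in control, and ERF1-3 had 35 reads in drought and 6 in control, ratios of 13.3 (1.89 to 578) and 7.76 (3.23 to 22.6). Every gene had more reads in drought than in control in each tissue where it was found. How isotigs were counted moved these ratios: ERF1-2 in roots had 56.0 with all isotigs summed, and ERF1-2 in leaves had 6.29 (0.704 to 297) with the top isotig alone. ERF1-3 in leaves had 4.81 with all isotigs summed. With an E-value up to 1e-20 the short match isogroup02553 dropped out. ERF1-2 then had 5 reads in drought leaves and none in control leaves, at least 2.29-fold higher in drought. With the MARS model of DEGseq at an unadjusted p under 0.001, 2 of the 3 genes were called higher in drought roots and 1 of the 2 in drought leaves. Over all genes, 3.63% were called higher in drought in roots and 5.06% in leaves. Of the isotigs, 4 of 9 in roots and 2 of 8 in leaves were called higher in drought, beside 3.39% of all root and 4.85% of all leaf isotigs. These counts describe how the family was chosen and test nothing.

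The leaf ratios depend on what the reads are set against. The gene totals used for them were 62635 reads in drought leaves and 83354 in control leaves, and the median gene with at least 10 reads was 0.49 higher in drought on the log2 scale. In roots this median was 0.02. Set against the median leaf gene, the ratios were 9.44 (1.34 to 410) for ERF1-2, 5.51 (2.29 to 16.02) for ERF1-3 and 6.07 (2.72 to 15.96) for their sum. With the TMM factors of edgeR the leaf median was -0.07, and with the isogroup totals it was 0.23. Over 5 ways of scaling, the ratio of the summed genes lay between 5.77 and 8.56 in leaves and between 8.59 and 9.72 in roots. The summed ratio was thus above 1 under each of these scalings, as the choice of the family by the same counts favours.

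All isogroup reads of the family came to 188 in drought roots and 17 in control roots, or 942 and 83.9 RPM, a ratio of 11.2 (6.83 to 19.7). In leaves they came to 45 in drought and 9 in control, or 246 and 44.3 RPM, a ratio of 5.55 (2.68 to 12.9). A single isogroup in each tissue carried most of the difference. Without isogroup00888, 44 reads in drought roots and 17 in control roots remained, a ratio of 2.63 (1.47 to 4.90). Without isogroup00936, 23 reads in drought leaves and 9 in control leaves remained, a ratio of 2.84 (1.26 to 6.97). The reads left in roots still include ERF1-1, with 17 reads in drought and 1 in control, while isogroup02074 had a ratio of 1.32 and isogroup07110 had 5 reads in each root library. These sums are a description, since the same counts chose the family.

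The shares of the genes among the eRF1 reads follow from the same counts and are given as a description. ERF1-2 gave 79.3% of the eRF1 reads in drought roots (72.8 to 84.8%) and 29.4% in control roots (10.3 to 56.0%). In control roots and in control leaves its reads came only from the short matches isogroup07110 and isogroup02553. ERF1-3 gave 11.7% in drought roots and 64.7% in control roots, and ERF1-1 gave 9.04% in drought roots and 5.88% in control roots. In leaves ERF1-3 gave 77.8% in drought (62.9 to 88.8%) and 88.9% in control (51.8 to 99.7%), and ERF1-2 the rest, and the intervals overlapped.

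By level, the libraries stood in a different order for each gene. ERF1-2 had 746 RPM in drought roots, 54.6 in drought leaves, 24.7 in control roots and 4.92 in control leaves. Its reads in both control libraries came only from isogroup07110 and isogroup02553, the short matches with 56% identity. In drought leaves 5 of its 10 reads came from isogroup02553. For this gene only drought roots, with an interval of 631 to 876, stood clear of the next library. ERF1-3 had 191 RPM in drought leaves, 110 in drought roots, 54.3 in control roots and 39.3 in control leaves. Each neighbour in that order had an interval overlapping the next. ERF1-1 had 85.2 RPM in drought roots and 4.94 in control roots. Roots and leaves were assembled and counted apart, so these levels are set side by side across tissues without a test.

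The partner eRF3, AT1G18070, had 38 reads in drought and 15 reads in control roots, a ratio of 2.87 (1.54 to 5.61), and was called higher in drought roots. The call was lost with the isogroup totals, the library reads and the size factors of DESeq2 as scaling, with ratios on the log2 scale of 1.36, 1.37 and 1.34. In leaves eRF3 had 9 reads in drought and 5 in control, a ratio of 2.40 (0.721 to 9.10) that did not pass. ABCE2, a plant gene for the recycling ATPase also known as RLI2, had 27 reads in drought and 23 in control roots, and 15 reads in drought and 6 in control leaves. Neither ratio passed, 1.33 (0.733 to 2.43) in roots and 3.33 (1.22 to 10.5) in leaves. ABCE1, the other recycling ATPase gene (RLI1), had 1 read in drought roots and none in control roots, and had no isotig in leaves.

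PEL1, which encodes Pelota, and HBS1, AT5G10630, were singled out for their likeness to eRF1 and eRF3, with their values already seen. PEL1 had 6 reads in drought and 1 in control roots, and 2 reads in drought and 1 in control leaves. HBS1 had 9 reads in drought and 2 in control roots, and 2 reads in drought and 5 in control leaves. In roots the ratios were 6.79 (0.824 to 312) for PEL1 and 5.09 (1.05 to 48.4) for HBS1. The root interval of HBS1 excluded 1 with gene totals as scaling. Neither gene passed the test in either tissue, and the counts are too low to show a difference in either direction in leaves.

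Per length of the longest isotig, as RPM per kilobase, eRF1 had 494 in drought roots and 51.9 in control roots. On the same scale eRF3 had 91.7 in drought roots and 35.7 in control roots, and ABCE2 had 87.4 in drought roots and 53.9 in control roots. The level of eRF1 was thus 5.39 times that of eRF3 in drought roots and 1.45 times in control roots. Of the 51.9 in control roots, 18.97 came from isogroup07110, the short match with 56% identity. Without isogroup07110, eRF1 stood below eRF3 in control roots, so their order there rests on that match. In leaves eRF1 had 145 in drought and 24.2 in control, against 47.2 in drought and 32.7 in control for eRF3, so that eRF1 was 3.08 times eRF3 in drought and 0.739 times in control. Without the isogroups of 144 and 22 reads, eRF1 had 134 in drought roots and 76.2 in drought leaves. ABCE2 had 80.1 in drought leaves and 17.5 in control leaves. Without those isogroups eRF1 thus stood above eRF3 in both drought libraries, but below ABCE2 in drought leaves. These are ratios of levels within a library and were not tested. No interval is given for them, and the order in drought leaves rests on 23 reads of eRF1, 9 of eRF3 and 15 of ABCE2.

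**Figure D3:**
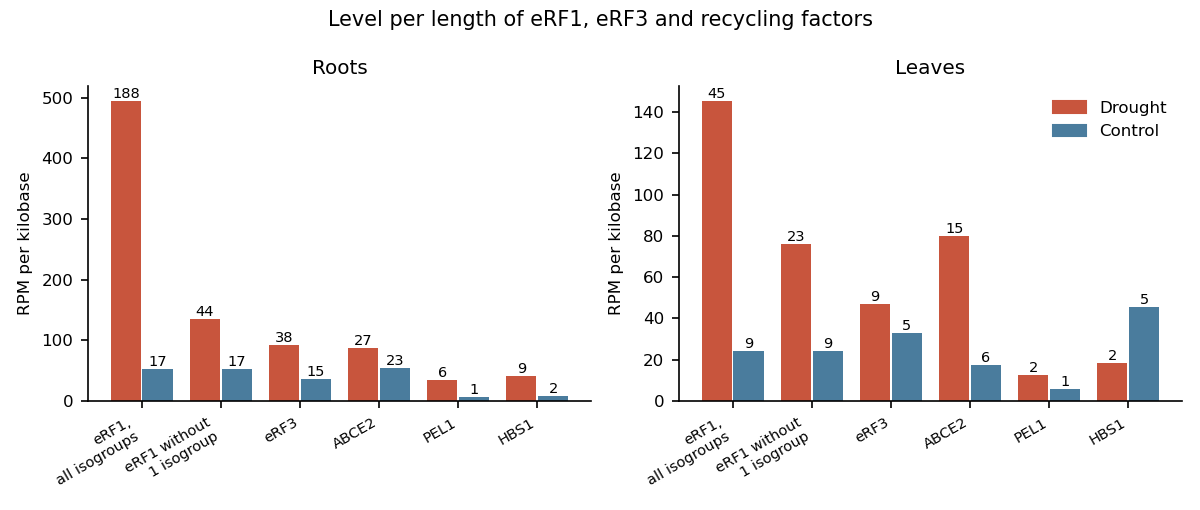
RPM per kilobase of the longest isotig, summed over isogroups, in drought (red) and control (blue) for eRF1, for eRF1 without isogroup00888 (roots) or isogroup00936 (leaves), and for eRF3, ABCE2, PEL1 and HBS1, with isogroup reads above the bars; the axes of the panels differ. In drought eRF1 stood at 494 in roots and 145 in leaves, above the 91.7 and 47.2 of eRF3.

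Other genes of translation were taken from 6 lists of 73 Arabidopsis genes: termination and recycling partners, nonsense-mediated decay, organellar release factors, elongation factors, initiation factors and poly(A)-binding proteins. In roots 44 of them were measured, and 6 were called higher in drought and none lower, beside 3.63% higher and 5.16% lower over all root genes. The list genes were more often deeply read, which favours calls among them: 38 had at least 10 reads, against 4785 of all 9199 root genes. Their median ratio on the log2 scale was 0.41 over the 38 with at least 10 reads, against 0.02 over all such genes. Of these 38, 29 (76.3%) were higher in drought, against 50.6% of all such genes. Beside eRF3, the called genes were the elongation factor eEF2 (LOS1) and the initiation factors EIF4A1, EIF3A, AT1G36730 (eIF5) and TIF3H1 (a subunit of eIF3).

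LOS1, which moves the ribosome along the message, had 245 reads in drought and 185 in control roots, a ratio of 1.499 (1.23 to 1.82). EIF4A1, an RNA helicase of initiation, had 132 reads in drought and 95 in control roots, a ratio of 1.57 (1.20 to 2.07). EIF3A had 57 reads in drought and 28 in control roots, a ratio of 2.30 (1.44 to 3.76). On the same scale the summed eRF1 genes had a ratio of 9.72 (5.87 to 17.1), from the counts that chose the family. With isogroup00888 left out after seeing the data, it was 2.93 (1.64 to 5.47), so the larger ratio rests on that isogroup. AT1G36730 had 33 reads in drought and 12 in control roots, and TIF3H1 had 35 reads in drought and 13 in control roots, ratios of 3.11 (1.57 to 6.62) and 3.05 (1.57 to 6.28). None of these 6 calls held with the isogroup totals, the library reads or the size factors, where ELF5A-3 (eIF5A, which eases elongation and release in yeast) was the only list gene called, with 9 reads in drought and 30 in control roots.

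In leaves 44 of the list genes were measured as well, and 6 were called higher in drought and none lower, beside 5.06% higher and 2.58% lower over all leaf genes. Here too the list genes were more often deeply read, 26 with at least 10 reads against 2971 of all 7012 leaf genes. The median ratio on the log2 scale was 1.47 over the 26 with at least 10 reads, against 0.49 over all such genes, and 22 of the 26 (84.6%) were higher in drought, against 62.3%. The called genes were the elongation factors AT2G18110 (a subunit of eEF1B) and AT5G60390 (eEF1A), the initiation factors EIF4G and EIF4A1, and the poly(A)-binding proteins PAB8 and PAB2. No termination or recycling partner was called in leaves. Over all leaf genes 355 were called higher and 181 lower in drought, but 173 higher and 317 lower with TMM, and only AT5G60390 and PAB8 of the list genes were called with that scaling.

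PAB8 had 23 reads in drought and 4 in control leaves, and PAB2 had 24 reads in drought and 6 in control leaves. These proteins coat the poly(A) tail and bind eRF3 in yeast and animals. Their ratios were 7.65 (2.61 to 30.4) and 5.32 (2.12 to 15.9), beside 8.56 (3.83 to 22.5) for the summed eRF1 genes. The eRF1 ratio comes from the counts that chose the family, and was 4.37 (1.82 to 12.1) without isogroup00936. In roots PAB8 had 99 reads in drought and 123 in control, and PAB2 had 23 in drought and 33 in control, and neither passed. AT2G18110 had 23 reads in drought and 5 in control leaves, a ratio of 6.12 (2.28 to 20.6). AT5G60390 had 150 reads in drought and 86 in control leaves, EIF4A1 had 45 in drought and 18 in control leaves, and EIF4G had 32 in drought and 13 in control leaves. Their ratios were 2.32 (1.77 to 3.06), 3.33 (1.89 to 6.11) and 3.28 (1.67 to 6.80). All 6 were higher in drought than the median leaf gene, by 1.65-fold for AT5G60390 to 5.43-fold for PAB8.

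In the nonsense-mediated decay list, 4 of 5 genes were measured in each tissue and none was called. None of the 7 organellar release and recycling factors was found in roots, and of the 4 found in leaves none was called, with 7 reads in drought and 26 in control leaves together. Poly(A)-binding proteins were higher in drought in 3 of 3 genes in leaves and 0 of 3 in roots, by their ratios and not by the test. Whether the drought ratio of any list differed between the tissues was not tested. The 6 lists leave out eRF1. For every 1000 reads of their genes there were 69.1 eRF1 reads in drought roots and 8.98 in control roots, and 67.7 in drought leaves and 17.99 in control leaves. These come from the counts that chose the family and describe it only.

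**Figure D4:**
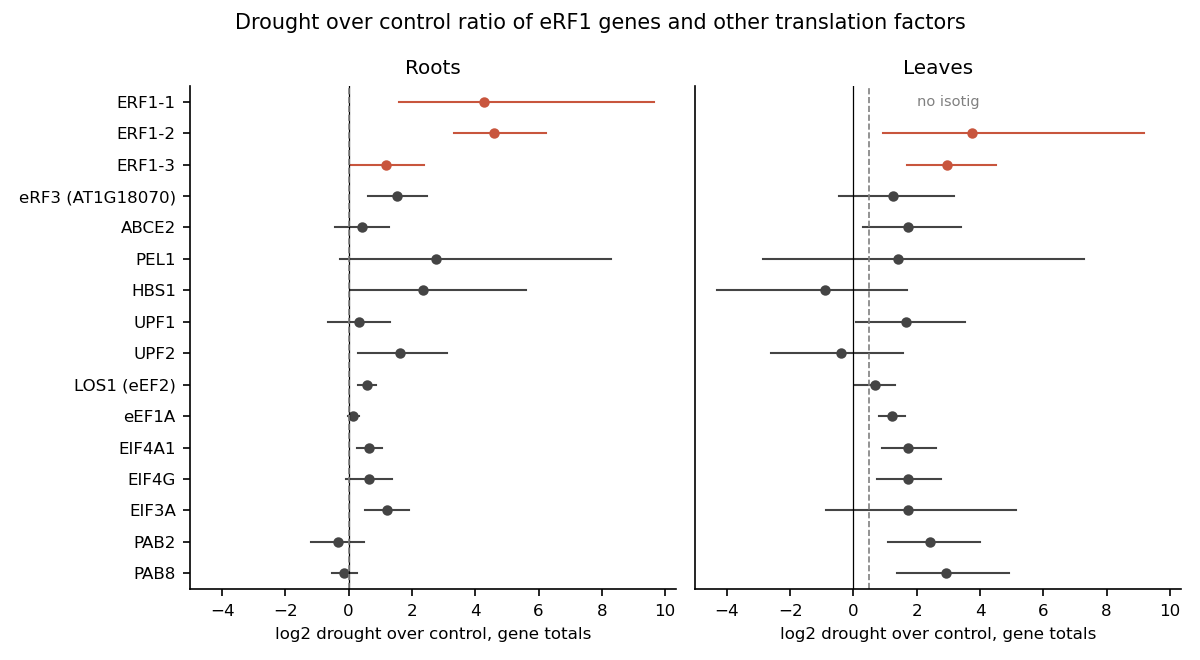
Drought over control ratio on the log2 scale, with gene totals as scaling, of the eRF1 genes (red) and other translation factors (black) in roots and leaves; points are ratios and lines exact 95% intervals. The dashed line is the median gene with at least 10 reads, 0.02 in roots and 0.49 in leaves. ERF1-1 had no isotig in leaves. ERF1-2 lay furthest from the median of the genes drawn in both tissues, as the choice of the family by these counts favours.

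Genes with a profile like that of eRF1 were sought among 1989 genes with at least 10 reads in each tissue, by the Euclidean distance between centred log2 RPM over the 4 libraries. Nearest to the summed eRF1 genes were the phospholipase D gene PLDDELTA, at a distance of 0.51, the zinc finger gene NFXL1, at 0.53, and AT5G18400, at 0.59. The median distance was 3.13. PLDDELTA had 64 reads in drought and 5 in control roots, and 22 in drought and 3 in control leaves. NFXL1 had 38 reads in drought and 5 in control roots, and 9 in drought and 2 in control leaves. AT5G18400 had 35 reads in drought and 7 in control roots, and 15 in drought and 2 in control leaves. Each was higher in drought in both tissues, as the measure requires.

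For ERF1-2 the nearest genes were SGB1, the mRNA 3' end processing gene CFIM-25 and the heat shock factor gene HSFC1, at 0.64, 1.04 and 1.26 (median 4.23). SGB1 had 97 reads in drought and 4 in control roots, and 15 in drought and 1 in control leaves. CFIM-25 had 263 reads in drought and 7 in control roots, and 9 in drought and 2 in control leaves. HSFC1 had 47 reads in drought and 7 in control roots, and 12 in drought and 1 in control leaves. These distances were larger than those of the genes nearest to the sum. In the ERF1-2 profile, all control reads came from the short matches isogroup07110 and isogroup02553. Of its 10 reads in drought leaves, 5 came from isogroup02553.

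For ERF1-3 they were the dehydrin gene ERD10, the autophagy gene ATG6 and AT5G06580, at 0.28, 0.39 and 0.40 (median 2.28). ERD10 had 120 reads in drought and 75 in control roots, and 233 in drought and 44 in control leaves. ATG6 had 7 reads in drought and 3 in control roots, and 10 in drought and 1 in control leaves. AT5G06580 had 15 reads in drought and 8 in control roots, and 20 in drought and 5 in control leaves. ERF1-3 and these genes had the larger ratio in leaves, while ERF1-2 had the larger ratio in roots. The intervals of ERF1-2 in roots (10.1 to 76.1) and leaves (1.89 to 578) overlapped. Its control reads in both tissues came only from the short matches isogroup07110 and isogroup02553, so its ratios join unlike transcripts. Whether the drought ratio of either eRF1 gene differed between tissues was not tested.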

How the data were processed

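The authors sequenced the 4 cDNA libraries by Roche pyrosequencing and assembled them with GS De Novo Assembler, drought and control reads of a tissue in the same run. They deposited read counts per isotig and per isogroup. Reads shared by isotigs are repeated in each. The deposited BLAST tables give the best match of each isotig, with its bit score, E-value and the percent of identical residues. Matches are listed past the cutoff of 0.001 that was used here. Deposited normalized values and the fold changes, z-scores and p-values of the authors were not used. No isotig sequence was printed, and isotigs carry no wheat gene identifier.

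All isotigs of a tissue that match 1 Arabidopsis locus stood for a gene, and its count is the sum over isogroups of the isotig with most reads. Near-identical copies from the wheat genomes cannot be told apart in such counts, nor could strand. Ratios used the sums of gene counts as totals, or of isogroup counts for RPM, with exact binomial or Poisson intervals (95%) that cover counting error only. A control count of 0 was set to a floor of 3 reads per library. Calls came from the MARS model of DEGseq, written again and tested on simulated data, at an unadjusted p under 0.001 with 0 set to 1. The genes named are all eRF1 genes, isotigs and isogroups, up to 4 called genes per list and tissue, eRF3, both RLI genes, and the 3 nearest profiles. For profiles 0.5 was added to each count. PEL1, HBS1, ELF5A-3 and, in a plot, UPF1 and UPF2 were added with their values seen. The eRF1 genes and the lists were chosen with earlier results of these data known. The alternatives were other totals, TMM (edgeR 4.0.16), size factors (DESeq2 1.42.0, R 4.3.3), all isotigs or the top isotig alone, an E-value up to 1e-20, a minimum of 10 reads, 0 set to 0.5, Fisher's exact test, Benjamini-Hochberg adjustment, and the exact test of edgeR, for which the coefficient of variation was assumed to be 0.2 or 0.4. Analyses ran in Python 3.11.15 (numpy 2.4.6, scipy 1.17.1, pandas 2.3.3), and figures were drawn with matplotlib 3.10.9.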

Additional observations from a re-analysis of the deposited data

How the results depend on the processing

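No paired analysis was possible because each tissue and condition had 1 library, and no library could be left out. The ratio of each eRF1 gene and of their sum stayed above 1 under the settings tried. The choice of the family by these same counts favours that outcome, so it tests nothing. The intervals of ERF1-3 in roots and of ERF1-2 in leaves included 1 under some of the settings. Over the planned settings the ratio of the summed genes ranged from 8.59 to 13.2 in roots and from 5.29 to 34.0 in leaves, where the highest value (5.09 on the log2 scale) came from the top isotig of each gene alone. By gene, and leaving out settings with no control read, the ranges were 16.2 to 19.2 for ERF1-1, 21.4 to 56.0 for ERF1-2 and 1.41 to 2.28 for ERF1-3 in roots, and 6.29 to 18.7 for ERF1-2 and 4.81 to 8.02 for ERF1-3 in leaves. In an alternative chosen after seeing the data, the isogroup with no control read and most drought reads was left out. The log2 ratios were then 0.18 for ERF1-2 and 1.55 for the sum in roots, and 1.53 for ERF1-3 in leaves. For ERF1-2 in roots this was a ratio of 1.13, with an interval of 0.260 to 4.92 that included 1.

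Of the 6 list genes called higher in drought roots, 0 were called with the isogroup totals, the library reads, the size factors or the edgeR exact test at a coefficient of variation of 0.2 or 0.4. Under those 3 scalings, with all isotigs summed and with Benjamini-Hochberg adjustment, 1 list gene outside these 6, ELF5A-3, was called lower. The 6 called higher in leaves became 2 with TMM, 3 with the top isotig, 15 with all isotigs, 10 with Benjamini-Hochberg adjustment, and 1 and 0 with edgeR at 0.2 and 0.4. Over all root genes, the 334 called higher became 550 with Benjamini-Hochberg adjustment, and with edgeR at 0.2 and 0.4 there were 150 and 46 higher and 244 and 63 lower. Over all leaf genes, the 355 called higher became 173 with TMM (317 lower), 210 with size factors, 906 with all isotigs and 601 with Benjamini-Hochberg adjustment, and with edgeR at 0.2 and 0.4 there were 173 and 33 higher and 72 and 4 lower. Over the 6 called list genes of each tissue, 33 of 78 values in roots and 21 of 78 in leaves lost the call, and no called gene changed direction. ABCE2 in leaves gained a call with all isotigs summed. With few reads per gene, depth limits every ratio that rests on a control count of 1 to 5.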

Other observations

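Single reads left out of the assembly did not add to the family. Of 37457 root and 28880 leaf singletons, 0 had an Arabidopsis eRF1 gene as best match. The eRF1 of a fly and of Dictyostelium was the best match of 1 root read each, and SUP45, the eRF1 of yeast, of 1 leaf read. Their library is not shown by their names.

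Other transcripts annotated with release factor activity were thinly read. The chloroplast release factor and related genes HCF109, APG3 and PrfB3 were found in leaves alone, with 1, 3 and 0 reads in drought and 4, 11 and 2 reads in control leaves. AT1G62850 had 1 read in each root library, and 4 reads in drought and 1 in control leaves. An isotig whose best match was a bacterial protein, ECH_0597, had 11 reads in drought and 2 in control roots, and 1 read in each leaf library.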
